A study of Homo sapiens and Mus musculus with 18 samples.

Results

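The transcripts of 6 fibroblast growth factor (FGF) ligands (FGF2, FGF3, FGF4, FGF5, FGF8 and FGF17) and of the 4 FGF receptor kinases, FGFR1 to FGFR4, were followed through human and mouse gastruloid formation. They were chosen by gene name, as 10 of 44910 genes in the human count table and 10 of 29720 in the mouse table, and 1 ligand in each species (human FGF5, mouse Fgf2) had too few reads to pass the filter on low counts. FGFs are secreted signals that bind receptor tyrosine kinases at the cell surface together with heparan sulphate chains. Ligand binding leads to phosphorylation of adaptor proteins, activation of RAS and the kinases RAF, MEK and ERK, and transcription of ETS-family factors and of feedback inhibitors. In the early embryo FGF signalling moves pluripotent cells out of the naive state, is needed for cells to leave the primitive streak, and is high in the growing tail end of the body axis.

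RNA-seq of polyadenylated RNA covered 18 samples in 9 groups of 2 biological replicates. The 5 human groups were H9 embryonic stem cells (ESCs) in the naive and in the primed state, primed cells of the RUES2-GLR line, and RA-gastruloids collected 24 h (early) and 120 h (late) after aggregation. H9 is a human ESC line. RUES2-GLR is another one that carries fluorescent reporters in SOX2, TBXT and SOX17. The human gastruloids are taken as made from it, as in the paper's comparison of these stages, although the paper also reports early gastruloids from H9. The step from primed H9 to RUES2-GLR is a difference of line. Naive H9 cells had been chemically reset and were kept in PXGL medium, which holds the MEK inhibitor PD0325901, the tankyrase inhibitor XAV939, the PKC inhibitor Gö6983 and LIF, first on mouse feeders and then without them. Primed cells were grown in StemFlex medium. RA-gastruloids came from cells treated with the WNT agonist CHIR99021 and with retinoic acid (RA), and were aggregated with CHIR99021. Matrigel and further RA were added after the time of the early collection, so only the late group received them.

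The 4 mouse groups were naive ESCs (mESCs, line E14Tg2a) kept in 2i/LIF medium, epiblast-like cells (EpiLCs), and gastruloids at day 3 (early) and day 6 (late) of aggregation. 2i/LIF medium holds CHIR99021, PD0325901 and LIF. EpiLCs had spent 2 days with Activin A and FGF2 protein. Mouse gastruloids were aggregated from the naive mESCs, not from EpiLCs, and received a pulse of CHIR99021. Neither medium, matrix nor line can therefore be told apart from stage. Both naive groups had a MEK inhibitor in their medium, and the EpiLC medium held an FGF.

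Libraries held 3681739 to 38771193 counted reads in human and 6487157 to 20052505 in mouse, and the smallest was the second RUES2-GLR replicate. Levels are given as CPM, a read count scaled to a common library size, with library sizes adjusted by the trimmed mean of M values (TMM), and levels of different genes are compared only as TPM, in which reads are divided by gene length before scaling. A gene was called between 2 groups at an edgeR adjusted p under 0.05 with an absolute log2 fold change above 1. Each SE was back-calculated, as the absolute log2 fold change divided by the square root of the edgeR F statistic. It can therefore be smaller than the counting error where a group had few reads. The 4 naive human markers summed to 4898 to 5305 CPM in naive H9 ESCs and to at most 9.24 CPM in each other human library, and the 5 primitive streak and axial progenitor markers summed to 859 to 894 CPM in early RA-gastruloids against 7.33 to 8.11 CPM in RUES2-GLR ESCs. The same 5 markers summed to 249 to 251 CPM in early mouse gastruloids. Of the heart markers, TNNT2 and MYL7 were at 0 in late RA-gastruloids, whereas all 3 exceeded 1 CPM in late mouse gastruloids. Mitochondrial genes took 53.2% and 54.2% of the TPM of the RUES2-GLR libraries and 11.7% to 24.2% in the other human libraries. TPM is therefore read as shares within a library, and summed TPM is set side by side in the text only for the RA-gastruloid stages.

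FGF4 (human chr11:69771022-69775341, minus strand, GRCh38, and mouse chr7:144401104-144418980, plus strand, GRCm39) is the ligand through which naive mouse cells begin to leave pluripotency. A site where SOX2 and OCT4 bind side by side is known to drive it in pluripotent cells, and is printed because FGF4 was the leading ligand transcript of both naive groups. The SOX motif CTTTGTT followed after 3 bases by the POU motif ATGCNAAT was searched on both strands of human chromosome 11 and mouse chromosome 7. Within 50000 bases of the gene it occurred once in each species, in the untranslated part of the FGF4 exon 3′ of the coding sequence (human chr11:69771671-69771700, minus strand, and mouse chr7:144418125-144418154, plus strand). On the whole of those chromosomes it occurred 9 times in human (0.0666 per Mb) and 3 times in mouse (0.0207 per Mb). Capitals mark both motifs, and 22 of the 30 bases were the same.
human FGF4 site: aaaactCTTTGTTcgaATGCAAATcatcga
mouse Fgf4 site: aaaactCTTTGTTtggATGCTAATgggata

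In human, FGF4 stood at 293 and 291 CPM in the naive H9 libraries, at 0.699 and 1.41 CPM in primed H9, at 1.15 and 1.59 CPM in RUES2-GLR, at 106 and 105 CPM in early RA-gastruloids, and at 0 and 0.102 CPM in late RA-gastruloids. High libraries were thus the naive and the early gastruloid ones, while both primed lines stood near 1 CPM, with 5 to 59 reads, and the late stage was under the limit of 3 reads. From naive to primed H9 ESCs FGF4 fell by 7.91 (SE 0.18) on the log2 scale (edgeR adjusted p = 4.31e-26), and by 8.67 without the second primed H9 replicate. From RUES2-GLR to early RA-gastruloids it rose by 6.40 (SE 0.23, edgeR adjusted p = 7.64e-21). At the last step its reads went from 2143 to 1, a depth-corrected ratio of 3211 with a 95% exact counting interval of 576 to 126876. Between the primed lines the replicates overlapped.

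In mouse, Fgf4 stood at 356 and 378 CPM in naive mESCs, 293 and 295 CPM in EpiLCs, 138 and 146 CPM in early gastruloids, and 11.2 and 9.83 CPM in late gastruloids. The order of the groups followed the order of the stages, with no overlap between neighbours. Its difference between naive mESCs and EpiLCs was -0.32 (SE 0.06), short of the fold threshold, whereas the step from EpiLCs to early gastruloids was -1.05 (SE 0.06) and that from early to late gastruloids -3.74 (SE 0.09, edgeR adjusted p = 4.36e-41). Thus no mouse group showed the gap between naive cells and gastruloids that human FGF4 showed in the primed lines. EpiLCs did not lie between these stages, since mouse gastruloids were aggregated from naive mESCs. The early stages also differed in markers. The 3 general pluripotency markers summed to 337 to 347 CPM in early RA-gastruloids and to 1768 to 1770 CPM in early mouse gastruloids. The 4 naive mouse markers summed to 551 to 564 CPM in early mouse gastruloids, against 45.8 to 46.8 CPM in EpiLCs. How far the early stages match was not tested. In 1 fit over both species, the human change exceeded the mouse change in size at each step. The naive to primed difference between the species was -7.69 (SE 0.18, edgeR adjusted p = 1.03e-28), the primed to early difference 7.34 (SE 0.22, edgeR adjusted p = 6.67e-25) and the early to late difference -7.43 (SE 0.49, edgeR adjusted p = 2.21e-15).

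FGF5 is a ligand used as a marker of the formative and primed mouse epiblast. Human FGF5 (chr4:80266639-80336680, plus strand) had 2 reads in 1 naive H9 library, 2 in 1 early RA-gastruloid library and 0 in the other 8, so it was not tested in human. A count of 0 allowed up to 0.0715 to 0.956 CPM, depending on the library, and these limits cover counting error only. Mouse Fgf5 (chr5:98402043-98424889, plus strand) was at 0.279 and 0.179 CPM in naive mESCs, 55.1 and 50.3 CPM in EpiLCs, 30.7 and 32.1 CPM in early gastruloids, and 20.7 and 25.8 CPM in late gastruloids. EpiLCs were highest and naive cells lowest, with every group apart from its neighbours. The naive mESC libraries held 2 reads each, under the limit of 3, so the size of a rise from them is uncertain. The rise from naive mESCs was 7.83 (SE 0.25, edgeR adjusted p = 6.73e-35) to EpiLCs and 7.09 (SE 0.27, edgeR adjusted p = 1.64e-30) to early gastruloids. The later steps, -0.74 (SE 0.09) to early and -0.44 (SE 0.11) to late gastruloids, passed the adjusted p threshold but not the fold threshold. The species difference in the naive to primed change was -10.73 (SE 2.33, edgeR adjusted p = 0.000155), a fitted value whose size depends on the prior count.

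The 250 bases upstream of the FGF5 start are shown because it was the member that was at the detection limit in all human groups but not in all mouse groups. The human window is chr4:80266338-80266587 (plus strand, GRCh38.p14, from RefSeq) and the mouse window chr5:98401793-98402042 (plus strand, GRCm39, upstream of the start in the count table). Over 239 aligned bases, 181 were identical (75.7%). GC content was 68.8% in human and 70.8% in mouse, with 27 and 24 CpG dinucleotides. Capitals mark the GC box GGGCGG on either strand, found once in each window and in 42.6% of 35116 human promoter windows of the same length. The TATAAA and CCAAT letters, which 10.7% and 32% of those windows held, were in neither.
human FGF5 upstream window: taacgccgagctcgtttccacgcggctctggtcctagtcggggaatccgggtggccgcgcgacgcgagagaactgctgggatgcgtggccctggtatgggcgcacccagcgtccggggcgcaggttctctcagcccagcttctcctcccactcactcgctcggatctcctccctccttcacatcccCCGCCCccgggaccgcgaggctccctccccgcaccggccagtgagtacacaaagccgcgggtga
mouse Fgf5 upstream window: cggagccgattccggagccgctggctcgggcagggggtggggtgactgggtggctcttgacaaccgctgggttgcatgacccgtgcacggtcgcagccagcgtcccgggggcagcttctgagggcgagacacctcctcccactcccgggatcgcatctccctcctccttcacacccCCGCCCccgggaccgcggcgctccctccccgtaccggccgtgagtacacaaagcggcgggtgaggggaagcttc

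FGF3, which acts in the tail bud and the inner ear, lies beside FGF4 (human chr11:69809968-69819416, minus strand, and mouse chr7:144391820-144398173, plus strand). Human FGF3 had 316 and 281 reads (30.4 and 28.4 CPM) in early RA-gastruloids and a single read in all other human libraries together. It was therefore a transcript of 1 human stage at this depth. Against the floor of 3 reads per library, it was at least 48.9-fold higher in early RA-gastruloids than in RUES2-GLR ESCs and at least 130-fold higher than in late RA-gastruloids. Mouse Fgf3 was 11.2 and 10.4 CPM in naive mESCs, 3.99 and 3.82 CPM in EpiLCs, 1.63 and 1.5 CPM in early gastruloids, and 3.5 and 3.43 CPM in late gastruloids. Early gastruloids were the lowest mouse group and the highest human one. The mouse change was -1.47 (SE 0.22) from naive mESCs to EpiLCs, -1.29 (SE 0.28) from EpiLCs to early gastruloids and 1.13 (SE 0.31) from early to late gastruloids (edgeR adjusted p = 3.86e-08, 7.53e-05 and 0.00107), and all 3 were called.

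FGF3, FGF4 and FGF19 lie within 121 kb of each other in human, and Fgf3, Fgf4 and Fgf15 within 62.9 kb in mouse. FGF19 and Fgf15 are counterparts, endocrine ligands that also act in early embryos. FGF19 was 40.0 and 36.0 CPM in RUES2-GLR ESCs and 35.9 and 41.9 CPM in early RA-gastruloids, so its replicates overlapped where those of its neighbours FGF3 and FGF4 did not. It fell by 5.69 (SE 0.26) from early to late RA-gastruloids (edgeR adjusted p = 5.94e-18), as FGF3 and FGF4 did. Fgf15 was highest in EpiLCs, at 27.2 and 23.2 CPM, where neither Fgf3 nor Fgf4 had its highest level.

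FGF8, a ligand needed for gastrulation and for the posterior gradient of the body axis, lies at chr10:101770109-101780371 (minus strand) in human and chr19:45725237-45731354 (minus strand) in mouse. In human it was 9.04 and 10.6 CPM in naive H9, 0.140 and 0.334 CPM in primed H9, 1.15 and 0.637 CPM in RUES2-GLR, 87.6 and 87.8 CPM in early RA-gastruloids, and 2.91 and 3.26 CPM in late RA-gastruloids. No groups overlapped. From RUES2-GLR to early RA-gastruloids it rose by 6.39 (SE 0.24, edgeR adjusted p = 2.11e-20), and it then fell by 4.85 (SE 0.17, edgeR adjusted p = 1.01e-20). In primed H9 it had fallen by 5.08 (SE 0.26, edgeR adjusted p = 2.27e-17) from the naive level, or by 6.02 without the second primed replicate. Its higher value in RUES2-GLR than in primed H9 (1.85, SE 0.51, edgeR adjusted p = 0.00236) rested on 16 reads in each group, and without the first RUES2-GLR replicate it was 1.28 with an adjusted p of 0.437.

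Mouse Fgf8 was 0.419 and 0.269 CPM in naive mESCs, 5.91 and 4.74 CPM in EpiLCs, 20.3 and 21.3 CPM in early gastruloids, and 18.4 and 18.6 CPM in late gastruloids. It was lowest in naive mESCs and highest at the early gastruloid stage. The naive mESC libraries held 3 reads each, at the limit of 3, so the size of a rise from them is uncertain. The rise was 3.92 (SE 0.41, edgeR adjusted p = 1.64e-12) to EpiLCs and a further 2.01 (SE 0.15, edgeR adjusted p = 2.37e-17) to early gastruloids. From early to late gastruloids it differed by -0.16 (SE 0.13, edgeR adjusted p = 0.247). FGF8 and Fgf8 thus moved in opposite directions from naive to primed cells (species difference -9.11, SE 0.45, edgeR adjusted p = 3.64e-19), and the early to late change also differed between the species (-4.55, SE 0.22, edgeR adjusted p = 3.32e-19).

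FGF17, of the same subfamily as FGF8, lies at chr8:22042398-22048809 (plus strand) in human and chr14:70873643-70879708 (minus strand) in mouse. Human FGF17 was 298 and 316 CPM in early RA-gastruloids and at most 2.38 CPM in each of the other 8 libraries, with 0 and 3 reads in primed H9. It rose by 7.49 (SE 0.20, edgeR adjusted p = 9.52e-24) from RUES2-GLR to early RA-gastruloids and fell by 7.15 (SE 0.17, edgeR adjusted p = 6.68e-25) afterwards. From naive to primed H9, 22 reads became 3, a ratio of 11.3 with a 95% counting interval of 3.39 to 58.9, and from primed H9 to RUES2-GLR 3 became 26, a ratio of 31.8 (9.74 to 164). Mouse Fgf17 was 5.02 and 5.65 CPM in naive mESCs, 2.66 and 2.83 CPM in EpiLCs, 1.58 and 2.90 CPM in early gastruloids, and 0.233 and 1.34 CPM in late gastruloids. Its highest group was the naive one and its level was low throughout. The change from early to late mouse gastruloids (-1.52, SE 0.50, edgeR adjusted p = 0.00503) was lost without the second early replicate (-1.13, adjusted p = 0.0574) or the first late one (-0.63, adjusted p = 0.311) and was -3.10 without the second late one. The change from naive mESCs to early gastruloids (-1.36, SE 0.30) went to -0.89 without the first early replicate.

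FGF2, the ligand added to media for primed cells, lies at chr4:122826708-122898236 (plus strand) in human and chr3:37402495-37464257 (plus strand) in mouse. Human FGF2 was 26.6 and 30.9 CPM in naive H9, 76.3 and 81.9 CPM in primed H9, 72.5 and 51.9 CPM in RUES2-GLR, 32.2 and 30.8 CPM in early RA-gastruloids, and 16.7 and 21.2 CPM in late RA-gastruloids. Both primed lines were above the other groups, and naive H9 overlapped early RA-gastruloids. It was 1.46 (SE 0.13) higher in primed than in naive H9 (edgeR adjusted p = 2.54e-11). The fall to early RA-gastruloids, -1.03 (SE 0.15, edgeR adjusted p = 4.05e-07), stood at the fold threshold and went to -0.81 without the first RUES2-GLR replicate and -0.97 without the second early one. Mouse Fgf2 had at most 7 reads in any library and was not tested within mouse. NUDT6 lies antisense to FGF2 and shares 804 of its 6775 exonic bases. Counting did not use strand, so reads on the shared bases were left out of both genes. The at most 144 reads of NUDT6 in any human library come from its other bases.

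**Figure D1:**
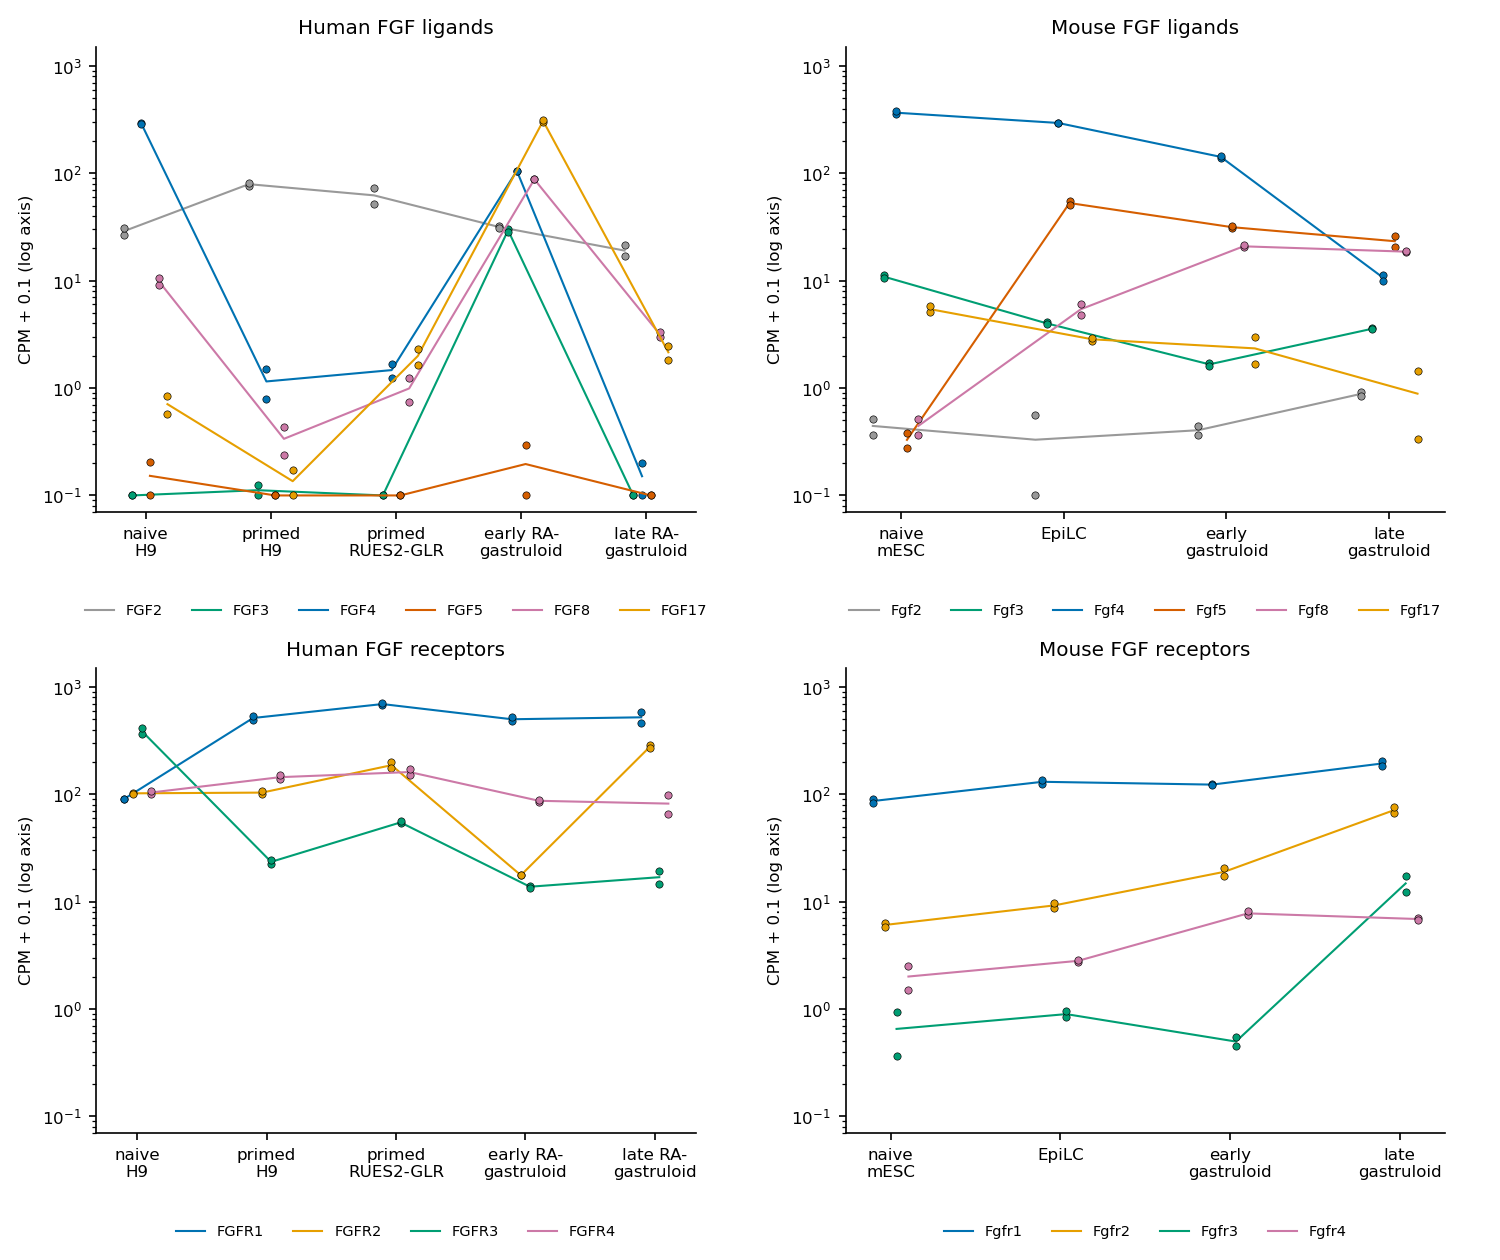
CPM plus 0.1 (log axis) of the 6 FGF ligands (top) and 4 FGF receptors (bottom) in human (left) and mouse (right). Points are the 2 replicates of each group and lines join the group means. FGF4 stood at 292 CPM in naive H9 and 105 CPM in early RA-gastruloids with both primed lines near 1 CPM, while mouse Fgf4 stayed between 142 and 367 CPM up to the early gastruloid stage.

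FGFR1 (human chr8:38400215-38468834, minus strand, and mouse chr8:26003670-26065734, plus strand) is the receptor of the epiblast and the streak. In human it was 89.6 and 90.0 CPM in naive H9, 488 and 538 CPM in primed H9, 676 and 709 CPM in RUES2-GLR, 476 and 523 CPM in early RA-gastruloids, and 582 and 459 CPM in late RA-gastruloids. Naive H9 stood below every other human group, and primed H9, early and late RA-gastruloids overlapped. The rise from naive to primed H9 was 2.52 (SE 0.11, edgeR adjusted p = 1e-18), and no later step was called. Mouse Fgfr1 was 90.3 and 82.5 CPM in naive mESCs, 125 and 136 CPM in EpiLCs, 125 and 121 CPM in early gastruloids, and 203 and 184 CPM in late gastruloids. No mouse step of Fgfr1 passed the fold threshold, and the naive to primed change was larger in human by 1.80 (SE 0.13, edgeR adjusted p = 2.96e-14).

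FGFR2 (human chr10:121478332-121598458, minus strand, and mouse chr7:129764181-132725079, minus strand) serves epithelia and mesenchyme as 2 splice forms, which gene counts do not separate. In human it was 103 and 101.2 CPM in naive H9, 100 and 107 CPM in primed H9, 199 and 174 CPM in RUES2-GLR, 17.6 and 17.5 CPM in early RA-gastruloids, and 288 and 269 CPM in late RA-gastruloids. The early gastruloids were lowest and the late ones highest, whereas naive and primed H9 overlapped (0.02, SE 0.10). RUES2-GLR stood above primed H9 by 0.86 (SE 0.11), short of the fold threshold. FGFR2 fell by 3.42 (SE 0.13, edgeR adjusted p = 1.87e-20) and then rose by 3.99 (SE 0.13, edgeR adjusted p = 4.48e-22). Its trough therefore lay at the stage where FGF3, FGF8 and FGF17 were highest. Mouse Fgfr2 showed no trough and was 6.28 and 5.65 CPM in naive mESCs, 8.72 and 9.54 CPM in EpiLCs, 17.3 and 20.4 CPM in early gastruloids, and 66.2 and 75.7 CPM in late gastruloids. The rise to early gastruloids was 1.65 (SE 0.15, edgeR adjusted p = 4.49e-14) from naive mESCs and 1.00 (SE 0.13, edgeR adjusted p = 2.91e-09) from EpiLCs, the latter going to 0.96 without the first EpiLC replicate and 0.90 without the second early one. The rise to late gastruloids was 1.93 (SE 0.10, edgeR adjusted p = 2.57e-25). Primed to early, the species differed by -4.54 (SE 0.17, edgeR adjusted p = 3.97e-22). The mouse coordinates are those of the gene model in the counts, which reaches Ctbp2 and shares 314 exonic bases with it. Ctbp2 had 767 to 5816 reads, and reads on the shared bases were left out of both genes. The merged exon length of this model, 10328 bases against 5642 for the longest transcript, enters the mouse TPM.

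FGFR3, known from growth plate cartilage and neural progenitors (human chr4:1793293-1808872, plus strand, and mouse chr5:33879018-33894412, plus strand), was highest in naive H9 ESCs, where FGFR1 was lowest. It was 362 and 414 CPM in naive H9, 22.4 and 24.3 CPM in primed H9, 53.5 and 55.8 CPM in RUES2-GLR, 13.9 and 13.4 CPM in early RA-gastruloids, and 19.2 and 14.4 CPM in late RA-gastruloids. No groups overlapped, though the late level differed from the early one by only 0.33 (SE 0.15, edgeR adjusted p = 0.0693). It was 1.21 (SE 0.13, edgeR adjusted p = 2.41e-09) higher in RUES2-GLR than in primed H9. The change from naive to primed H9 was -4.05 (SE 0.13, edgeR adjusted p = 1.38e-22), and that from RUES2-GLR to early RA-gastruloids -1.99 (SE 0.15, edgeR adjusted p = 5.49e-13). Mouse Fgfr3 had between 3 and 13 reads in every library before the late stage, and 17.2 and 12.2 CPM in late gastruloids. It was thus a late transcript in mouse, up by 5.14 (SE 0.32, edgeR adjusted p = 1.80e-21). An antisense gene, with at most 1 counted read, shares 998 of the 7158 exonic bases of Fgfr3, and reads there were left out of both genes. The species differed both from naive to primed (-4.88, SE 0.62, edgeR adjusted p = 1.57e-08) and from early to late (-4.67, SE 0.34, edgeR adjusted p = 3.87e-14).

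FGFR4, a receptor of endoderm and of muscle precursors (human chr5:177086905-177098144, plus strand, and mouse chr13:55300453-55316572, plus strand), was called at no human step. It was 100 and 107 CPM in naive H9, 138 and 150 CPM in primed H9, 151 and 171 CPM in RUES2-GLR, 84.9 and 88.8 CPM in early RA-gastruloids, and 97.5 and 66.0 CPM in late RA-gastruloids. Early and late replicates overlapped. Its change from RUES2-GLR to early RA-gastruloids was -0.88 (SE 0.13, edgeR adjusted p = 1.21e-06), and -1.06 without the first RUES2-GLR replicate. Mouse Fgfr4 was 1.40 and 2.42 CPM in naive mESCs, 2.66 and 2.76 CPM in EpiLCs, 7.36 and 8.0 CPM in early gastruloids, and 6.89 and 6.70 CPM in late gastruloids. It rose by 1.48 (SE 0.23, edgeR adjusted p = 1.43e-07) from EpiLCs to early gastruloids, which differed from the human step by -2.47 (SE 0.25, edgeR adjusted p = 2.55e-10).

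Counted over the members, 6 of the 9 tested human genes were called from naive to primed H9 ESCs, 2 higher and 4 lower, where 47.8% of all 18300 genes tested were called (25.5% higher and 22.3% lower). Between the primed lines 3 were called, all higher, against 29.3% of all genes (17.1% higher and 12.2% lower). From RUES2-GLR to early RA-gastruloids 7 were called, 4 higher and 3 lower, against 29.6% (12% and 17.6%), and the 4 higher ones were FGF3, FGF4, FGF8 and FGF17. From early to late RA-gastruloids 5 were called, 1 higher (FGFR2) and 4 lower (FGF3, FGF4, FGF8 and FGF17), against 24.9% (11.8% and 13.2%). These shares are over the members that passed the filter on low counts, which a gene can pass through 1 high group alone, and they are given as descriptions.

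In mouse, 3 of the 9 tested members were called from naive mESCs to EpiLCs, 2 higher (Fgf5 and Fgf8) and 1 lower (Fgf3), against 29.8% of 15003 genes (17.7% higher and 12.1% lower). From EpiLCs to early gastruloids 5 were called, 3 higher and 2 lower, against 20.9% (11.7% and 9.24%). From naive mESCs, the cells that were aggregated, to early gastruloids 7 were called, 4 higher and 3 lower, against 23% (16.2% and 6.81%), and from early to late gastruloids 5, 3 higher and 2 lower, against 39.2% (20.1% and 19.1%). The comparisons share groups and are not independent of each other. Of the 10 members in the fit over both species, the change differed between species for 6 from naive to primed, 6 from primed to early and 7 from early to late, against 42.1%, 32.6% and 35.4% of 14008 genes. FGF2 was among the 7 at the last step (-1.90, SE 0.71, edgeR adjusted p = 0.0223) with at most 7 reads per mouse library, and its call was lost without the second early mouse replicate (adjusted p = 0.050) or either late one (adjusted p = 0.117 and 0.0567).

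**Figure D2:**
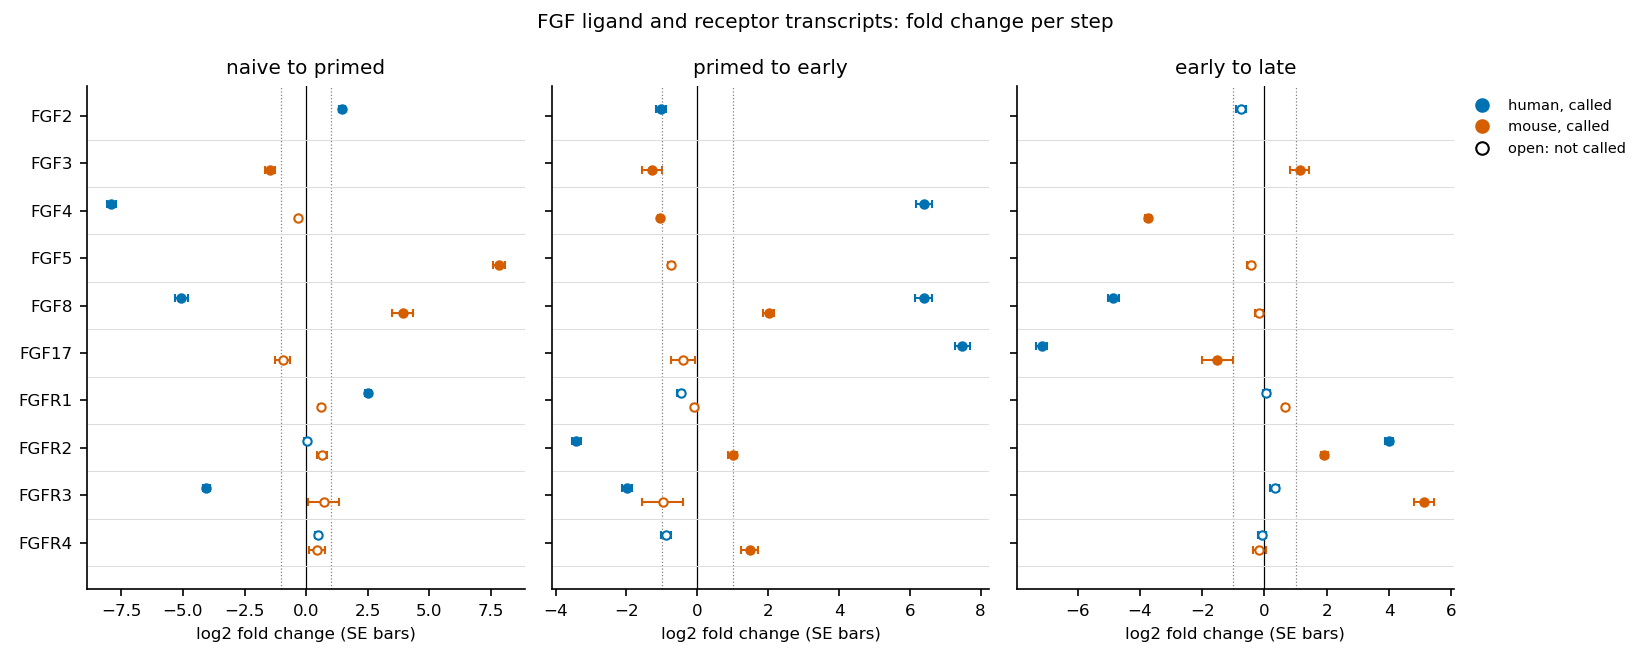
Log2 fold change of each member (x axis; bars are SE) from naive to primed, primed to early and early to late in human (blue) and mouse (orange); filled points passed an adjusted p under 0.05 with an absolute change above 1 (dotted lines). Members with no fitted fold in a species, because 1 group had at most 3 reads or the gene was not tested, have no point. The SE was back-calculated from the F statistic of the test and can be smaller than the counting error at few reads. Human FGF8 lies at -5.08 and mouse Fgf8 at 3.92 from naive to primed.

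The leading ligand, as a share of the summed TPM of the 6, changed at 3 of the 4 human comparisons. Secreted FGFs outside the 6, FGF19 among them, were not in this sum, so a lead here is a lead among the 6 only. FGF4 made up 89.2% ± 1.1 (SD, n = 2) of it in naive H9, FGF2 95.8% ± 2.0 in primed H9 and 84.6% ± 3.0 in RUES2-GLR, and FGF17 44.4% ± 1.3 in early RA-gastruloids, ahead of FGF8 (28.9% ± 0.36), FGF4 (15.8% ± 0.29) and FGF3 (8.69% ± 0.54). In late RA-gastruloids FGF2 led again with 50.0% ± 3.7, followed by FGF8 with 38.4% ± 0.51. With the length of the longest transcript in place of the merged exon length, the lead was narrower (45.0% and 41.7%). The first replicate then held 42.3% and 41.8%. The summed ligand TPM was 821 ± 14 in early RA-gastruloids and 22.4 ± 2.6 in late ones, and the mitochondrial shares of those libraries were 18.2% to 24.2% of TPM. In mouse Fgf4 led in naive mESCs (93.3% ± 0.34), EpiLCs (76.5% ± 1.3) and early gastruloids (59.7% ± 0.26), with Fgf5 second in EpiLCs (17.5% ± 0.92) and Fgf8 second in early gastruloids (20.7% ± 0.15). In late gastruloids Fgf8 (48.5% ± 2.5) and Fgf5 (32.6% ± 3.2) led. FGF2 took at most 0.407% of the mouse ligand TPM in any group.

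Among the receptors, FGFR3 held 71.3% ± 1.3 (SD, n = 2) of the summed TPM in naive H9 and FGFR1 4.66% ± 0.34. In primed H9 FGFR4 (42.8% ± 0.11) and FGFR1 (42.5% ± 0.28) were level, and with the length of the longest transcript in place of the merged exon length FGFR1 led with 55.2%. FGFR1 led in the remaining human groups, with 42.4% ± 0.23, 57.1% ± 1.1 and 46.2% ± 0.12 in RUES2-GLR, early and late RA-gastruloids. With the longest transcript these shares were 54.9%, 70.4% and 54.3%. FGFR3 then held 58.9% and FGFR1 9.48% in naive H9. In late RA-gastruloids FGFR4 held 25.7%, above FGFR2, but with the longest transcript FGFR2 (26.2%) stood above FGFR4 (17.0%). The SDs do not cover this choice of length. FGFR2 went from 10.5% ± 1.4 in RUES2-GLR to 1.83% ± 0.10 in early and 22.8% ± 2.8 in late RA-gastruloids. Mouse Fgfr1 led in every group, with 88.0% ± 1.6 in naive mESCs, 88.2% ± 0.14 in EpiLCs, 75.5% ± 2.0 in early and 64.3% ± 1.8 in late gastruloids. Its smaller share in late gastruloids stood beside 22.6% ± 3.0 for Fgfr2 and 6.72% ± 1.3 for Fgfr3. In these bulk libraries, fewer cells of a type that makes a transcript and less of that transcript per cell cannot be told apart.

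**Figure D3:**
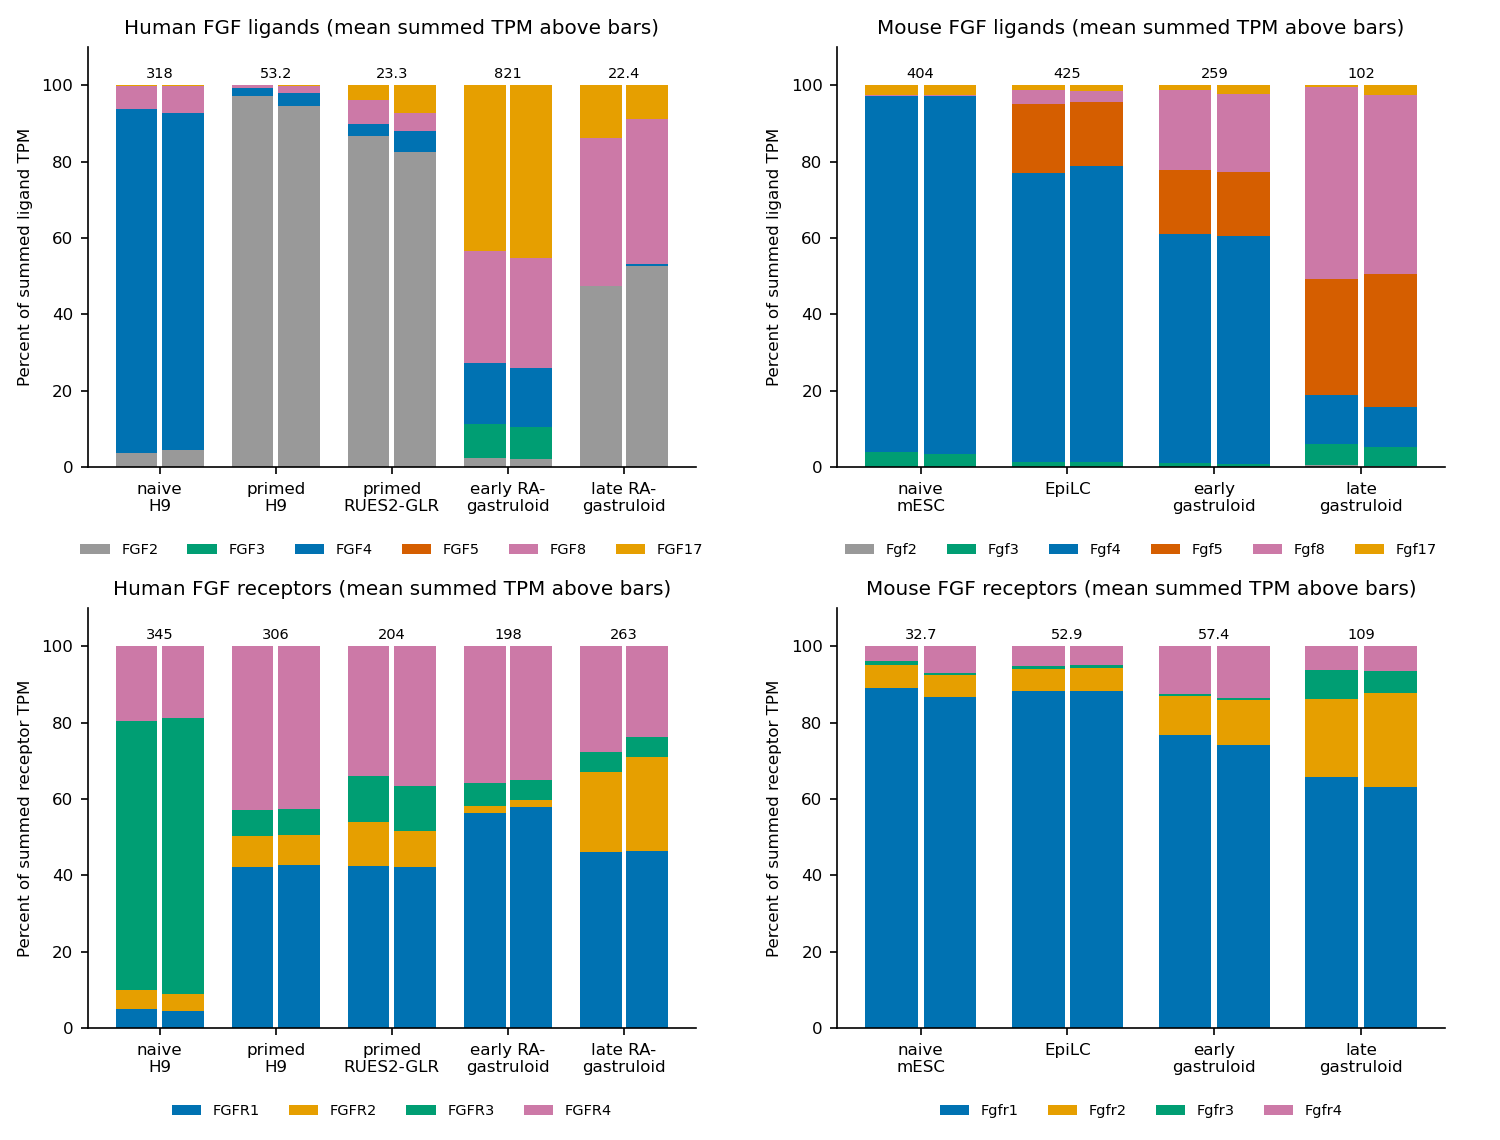
Each ligand (top) and receptor (bottom) as a percent of the summed TPM of the 6 ligands or 4 receptors, with 1 stacked bar per replicate and the mean summed TPM of the group above the pair. The sum for RUES2-GLR cannot be set against other groups, since mitochondrial genes took 53.2% and 54.2% of its TPM. Among the 6 ligands, FGF4, FGF2, FGF17 and FGF2 lead in the human series from naive H9 to late RA-gastruloids, whereas Fgf4 leads the mouse bars up to early gastruloids.

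SPRY4, an inhibitor of RAS activation, DUSP6, the ERK phosphatase, and the transcription factors ETV4 and ETV5 are common readouts of FGF-ERK signalling. In human, SPRY4 was 2.46 and 3.33 CPM in naive H9, 235 and 231 CPM in primed H9, 130 and 112 CPM in RUES2-GLR, 71.5 and 73.1 CPM in early RA-gastruloids, and 6.98 and 5.81 CPM in late RA-gastruloids. DUSP6 was 1.78 and 1.15 CPM in naive H9 and 233 and 245 CPM in primed H9. Both were low in the naive cells, whose medium held a MEK inhibitor and cannot be told apart from their state, and SPRY4 was low again at the late stage. From naive to primed H9, SPRY4 rose by 6.34 (SE 0.16, edgeR adjusted p = 3.18e-25), DUSP6 by 7.33 (SE 0.17, edgeR adjusted p = 8.29e-26), ETV4 by 2.39 (SE 0.11, edgeR adjusted p = 1.02e-18) and ETV5 by 5.11 (SE 0.17, edgeR adjusted p = 4.27e-22). None of the 4 was called from RUES2-GLR to early RA-gastruloids, the step at which the 4 ligands rose. Between the gastruloid stages SPRY4 fell by 3.47 (SE 0.14), ETV4 by 4.46 (SE 0.14) and ETV5 by 2.14 (SE 0.15), but DUSP6 went from 97.7 and 103 CPM to 207 and 194 CPM (1.00, SE 0.11, edgeR adjusted p = 6.56e-09).

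In mouse, Spry4 was 5.72 and 4.75 CPM in naive mESCs, 49.8 and 43.8 CPM in EpiLCs, 12.8 and 12.9 CPM in early gastruloids, and 9.46 and 8.79 CPM in late gastruloids. It peaked in EpiLCs, and Dusp6 did so too, with 282 and 271 CPM against at most 87.7 CPM in every other library. From naive mESCs to EpiLCs, Spry4 rose by 3.16 (SE 0.14, edgeR adjusted p = 1.02e-27), Dusp6 by 3.92 (SE 0.08, edgeR adjusted p = 1.71e-44) and Etv4 by 1.06 (SE 0.07, edgeR adjusted p = 2.50e-19). Etv5 did not follow, being 262 and 280 CPM in naive mESCs and 267 and 279 CPM in EpiLCs (0.01, SE 0.05), 374 and 370 CPM in early gastruloids and 74.7 and 71.8 CPM in late gastruloids, a fall of 2.34 (SE 0.06, edgeR adjusted p = 1.82e-39) at the last step. Between EpiLCs and early gastruloids, Spry4 (-1.84, SE 0.11), Dusp6 (-1.92, SE 0.06) and Etv4 (-1.82, SE 0.07) fell, each with a lower value in both replicates.

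**Figure D4:**
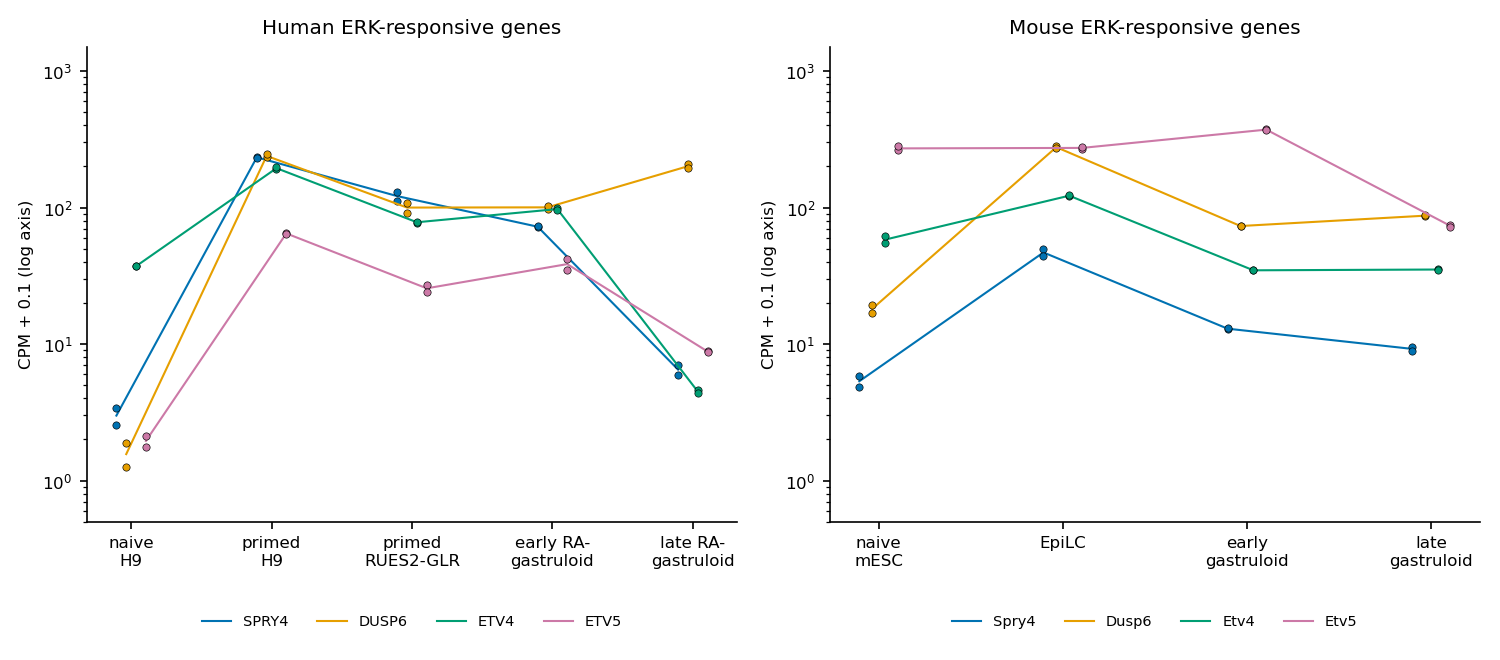
CPM plus 0.1 (log axis) of SPRY4, DUSP6, ETV4 and ETV5 in human (left) and mouse (right), with points for the 2 replicates and lines through the group means. SPRY4 goes from 2.89 CPM in naive H9 to 233 CPM in primed H9 and 6.40 CPM in late RA-gastruloids, while Etv5 in naive mESCs (271 CPM) lies level with EpiLCs (273 CPM).

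The wider pathway was read from 7 lists. From naive to primed H9, 25.5% of all genes tested were higher and 22.3% lower, while 9 of 11 feedback inhibitors rose and none fell (median log2 change 3.10, with 0.00 over all genes tested). Of the ERK-responsive transcription factors 4 of 6 rose, and FOSL1 fell by 1.72 (SE 0.17, edgeR adjusted p = 1.81e-10). The 19 RAS-MAPK transducers, from FRS2 to ERK itself, moved little, with 3 higher and 16 not called (median 0.00). From naive mESCs to EpiLCs 6 of 10 tested feedback inhibitors rose and none fell (median 1.74 against 0.02 for all genes), with 2 of 19 transducers higher, where 17.7% of all genes were higher and 12.1% lower. At the primed to early step 2 of the 11 human feedback inhibitors rose and 1 fell, near the 29.6% of all human genes called there, and 3 of the 10 mouse ones fell, where 9.24% of all mouse genes were lower. DUSP5, another ERK phosphatase, was among the human risers at 33.6 and 33.5 CPM in RUES2-GLR and 112 and 118 CPM in early RA-gastruloids (1.78, SE 0.14, edgeR adjusted p = 1.29e-12). At the last human step 4 feedback inhibitors fell and 2 rose, and 3 of 6 ERK-responsive factors fell (median -1.52, with 0.00 over all genes), where 13.2% of all genes were lower and 11.8% higher. Over all 7 lists, 37, 24, 22 and 21 of 68 tested human genes were called at the 4 human comparisons, in the order of the members' counts above. These were 54.4%, 35.3%, 32.4% and 30.9%, against 47.8%, 29.3%, 29.6% and 24.9% of all genes. In mouse 23, 19, 21 and 27 of 63 were called, or 36.5%, 30.2%, 33.3% and 42.9%, against 29.8%, 20.9%, 23% and 39.2% of all genes. These shares were near or somewhat above those of all genes. The comparisons share groups and the lists were chosen with earlier results of these data known, so the shares are given as descriptions.

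Transcripts of FGF carriers, co-receptors, adaptors and intracellular FGF homologues differed between the primed lines as well as between stages. FGFBP3, a carrier that releases FGFs from the matrix, was 1.20 and 1.15 CPM in naive H9 and 183 and 200 CPM in primed H9 (7.34, SE 0.16, edgeR adjusted p = 1.68e-26), and it fell from a mean of 1315 CPM in RUES2-GLR to 124 CPM in early RA-gastruloids (-3.41, SE 0.11, edgeR adjusted p = 4.09e-22). Between the primed lines FLRT3, a membrane partner of FGF receptors, was 5.19 (SE 0.22) higher in RUES2-GLR and the glypican GPC3 3.22 (SE 0.12) higher, whereas the adaptor SHC1 was lower by 1.99 (SE 0.11) and the intracellular factor FGF13 by 1.90 (SE 0.12, all edgeR adjusted p at most 1.87e-14). Of 16 tested heparan sulphate genes, 8 fell and none rose from RUES2-GLR to early RA-gastruloids, where 17.6% of all genes were lower and 12% higher, with GPC4 going from a mean of 1950 to 201 CPM (-3.28, SE 0.10, edgeR adjusted p = 5.80e-22). The syndecan SDC4 fell by 2.45 (SE 0.11, edgeR adjusted p = 4.22e-19) from naive to primed H9. In late RA-gastruloids the sulphatase SULF1, which trims heparan sulphate, was higher than in early ones by 3.71 (SE 0.12, edgeR adjusted p = 1.02e-21) and the membrane protein FLRT2 by 2.82 (SE 0.15, edgeR adjusted p = 3.01e-16).

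FGF10, a ligand of mesenchyme, was 12.9 and 12.2 CPM in early RA-gastruloids, with 2 reads in RUES2-GLR ESCs. In mouse it stood at 32.5 and 36.2 CPM in late gastruloids and at 0.444 and 0.616 CPM in early ones, a rise of 6.05 (SE 0.23, edgeR adjusted p = 7.10e-31). The mouse level was thus highest at the late stage and the human one at the early stage. Flrt3 rose by 5.40 (SE 0.11, edgeR adjusted p = 3.08e-45) and the carrier Fgfbp1 fell by 4.77 (SE 0.20, edgeR adjusted p = 1.89e-29) from early to late mouse gastruloids, where Sdc4 also fell, by 2.50 (SE 0.07, edgeR adjusted p = 3.68e-38). Towards EpiLCs the sulphotransferase Hs6st2 rose by 5.0 (SE 0.25, edgeR adjusted p = 9.94e-26) and Fgf15 by 4.00 (SE 0.24, edgeR adjusted p = 4.32e-22), and the glypicans Gpc3 and Gpc4 fell by 1.78 (SE 0.06) and 1.56 (SE 0.09). From naive mESCs to early gastruloids Hs6st2 rose by 6.60 (SE 0.19) and Egr1, an early ERK target, by 4.02 (SE 0.18), and Gpc3 fell by 1.27 (SE 0.05) and Sdc2 by 1.30 (SE 0.11). EpiLCs and early gastruloids were set apart by Fos (3.42, SE 0.18) and Sdc4 (3.41, SE 0.07), which were higher in the gastruloids, and by Fgf15, which was lower there (-2.39, SE 0.17, edgeR adjusted p = 7.20e-19).

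Markers of other cell types moved with several of these groups. The 6 fibroblast markers summed to 665 to 686 CPM in naive H9, all 6 above 1 CPM, and to 267 to 276 CPM in primed H9, where DCN and LUM were at 0. They summed to 562 to 628 CPM in RUES2-GLR, again with DCN and LUM at 0, and to 992 to 1059 CPM in early RA-gastruloids, where 3 of the 6 were above 1 CPM in both replicates. In late mouse gastruloids the same list summed to 490 to 533 CPM, all 6 above 1 CPM, against 2.52 to 2.99 CPM in early ones, and the 3 endoderm markers to 74.4 to 75.1 CPM against 2.37 to 2.73 CPM. The 4 neural tube markers summed to 344 to 374 CPM in late RA-gastruloids, and 0.404 to 0.673 CPM in early ones, but only to 12.7 to 14.5 CPM in late mouse gastruloids, with Neurog2 at 0. The 4 somite markers summed to 25.9 to 28.0 CPM in early RA-gastruloids and to 372 to 419 CPM in late ones, all 4 above 1 CPM. Streak and axial progenitor markers went from 859 to 894 CPM down to 42.7 to 44.2 CPM over the same step, at which FGF3, FGF4, FGF8 and FGF17 fell. The part of these cell types in the levels of the 4 ligands, FGFR2, Fgfr3 and Fgf10 was not tested.

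The genes whose log2 CPM followed a member most closely over the samples of a species were named by Pearson's r, as a description over 10 human or 8 mouse libraries that fall into a few groups. For FGF4 they were ATP6V1H (0.990), TXN (0.971) and RAB6A (0.970), and for mouse Fgf4 they were Noc4l, Igfbp2 and Hspbap1 (0.999 each). For FGF8 they were NXPH4 (0.977), LINC00467 (0.975) and SLC25A42 (0.966). Mouse Fgf5 was followed by Enpp2 (0.999), Vrtn (0.998) and Gadd45g (0.995), and mouse Fgf8 by Crybg3 (0.998), Nes (0.998) and Wnt4 (0.996).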

How the data were processed

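The authors counted reads per gene: per the paper's methods and the submitters' processing notes, trimming used Trimmomatic 0.39, alignment used STAR (GRCh38 for human, GRCm39 for mouse), and featureCounts ran on default settings, which ignore strand and leave out reads that map to several places or overlap several genes. The annotation release is not given in the sources used here. The deposited values are raw counts, 1 table per species. Gene symbols came from GENCODE releases 44 and M39. Counts were tested with edgeR 4.0.16 (filterByExpr, TMM, quasi-likelihood test, Benjamini-Hochberg adjustment over all genes tested), with 1 fit per species and 1 coefficient per group. A further fit over symbol-matched genes tested species differences. The code was checked on simulated counts. Alternatives were DESeq2 1.42.0 with its own test, DESeq2 size factors, upper quartile scaling, no filter, only the groups compared, the adjusted p alone, a replicate term, and leaving out each replicate.

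Named genes were all members, SPRY4, DUSP6, ETV4 and ETV5, and per comparison the 2 largest rises and 2 largest falls among called pathway genes with at least 10 CPM and replicates that did not overlap. For FGF4, FGF5 and FGF8, the 3 genes with the highest Pearson r of log2 CPM were named too. The members and gene lists were chosen with earlier results of these data known. The 2 replicates of each group were collected within 1 batch, so p-values measure the spread between those samples. Sequencing used either of 2 read-length configurations, and the paper does not say which libraries had which. Common biological variation was 8.18% in human and 4.30% in mouse. Mouse Fgf6, Fgf20, Fgfbp2 and Spry3 were not analysed here.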

Additional observations from a re-analysis of the deposited data

Results flagged for a closer look

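The changes below differed between human and mouse in the test of the difference itself, and each value is the human minus the mouse log2 fold change. From naive to primed cells they were FGF4 (-7.69), FGF5 (-10.73), FGF8 (-9.11), FGF17 (-2.45), FGFR1 (1.80) and FGFR3 (-4.88). From primed cells to early gastruloids they were FGF4 (7.34), FGF3 (12.98), FGF8 (4.28), FGF17 (7.80), FGFR2 (-4.54) and FGFR4 (-2.47). From early to late gastruloids they were FGF4 (-7.43), FGF2 (-1.90), FGF3 (-12.71), FGF8 (-4.55), FGF17 (-5.50), FGFR2 (2.22) and FGFR3 (-4.67). The values for FGF3, for FGF5 and for FGF4 at the last step rest on groups with at most 2 reads, so their size depends on the prior count and is no bound. The primed group was RUES2-GLR in human for the second step, and the mouse gastruloids did not come from EpiLCs. Leaving out 1 library moved some of these values by over 1.5 times on the fold scale without ending the call. From naive to primed, FGF4 was -8.46, FGF8 -10.05 and FGF17 -5.02 without the second primed H9 replicate, and FGFR3 ran from -5.71 to -4.15 without either naive mESC replicate. From primed to early, FGF8 was 4.95 without the first RUES2-GLR replicate. From early to late, FGF4 was -5.96 and -9.72 without either late RA-gastruloid replicate and FGF17 -6.37 and -3.88 without either late mouse one.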

How the results depend on the processing

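Counts of called members and pathway genes stayed within 1.5 times under DESeq2, both other scalings, no filter, the groups compared alone and each left-out replicate. With the adjusted p alone and no fold threshold, called members went from 3 to 5 between the primed lines and from 3 to 7 from naive mESCs to EpiLCs, and called pathway genes numbered 44, 53 and 45 at the last 3 human comparisons and 52, 49, 47 and 54 at the 4 mouse ones. Signs turned only for changes that were not called. FGFR2 from naive to primed H9 was -0.089 under DESeq2 and its size factors, -0.0035 without the filter and -0.035 to 0.092 without 1 replicate. Without 1 replicate, FGF4 between the primed lines ran from -0.21 to 0.80, FGFR1 from -0.12 to 0.24 and FGFR4 from -0.40 to 0.18 between RA-gastruloid stages, Fgfr3 from -0.035 to 1.56 (mESCs to EpiLCs) and from -1.01 to 0.59 (mESCs to early gastruloids), and Fgf17 from -0.80 to 0.066 (EpiLCs to early gastruloids). The FGFR4 species difference was 0.0042 from naive to primed under upper quartile scaling, and ran from -0.63 to 0.22 there and from -0.033 to 0.47 from early to late without 1 replicate. FGFR2 passed the fold threshold between the primed lines under 4 alternatives (1.01 to 1.05) and without the second RUES2-GLR replicate (1.04). So did Fgf17 from naive mESCs to EpiLCs without the first naive or the second EpiLC replicate (-1.03 and -1.01) and FGFR4 from RUES2-GLR to early RA-gastruloids under upper quartile scaling (-1.02) and without the first RUES2-GLR replicate (-1.06), whereas Fgfr2 from EpiLCs to early gastruloids missed it under 3 (0.96 to 1.00) and without the first EpiLC or the second early replicate (0.96 and 0.90). The causes were not tested. Median log2 change over all genes between the primed lines was -0.12 under TMM and 0.00 under DESeq2 size factors.

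Same-numbered replicates did not deviate together (correlations -0.11 to 0.068), so no strong pairing by number was seen. Counting noise and unequal depth could hide a weaker one. With the replicate block, the counts of called members were as before at every comparison (3 to 7), and called pathway genes numbered 19 to 36.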
